A study of Mus musculus with 88 samples.

Results

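Polycomb complex genes were followed in single mouse oocytes. The 10 genes described are 10 of the 38540 features of the count table, and 9 of them are among the 12408 features with a mean of at least 10 counts per oocyte, the exception being Ring1. Each gene was matched to its feature by the name in the study's supplementary sheet (Eed, Suz12, Jarid2, Pcgf1 and Pcgf6) or, where that sheet as held here gave none, by a same-strand gene of GENCODE M21 whose span overlapped the feature with a Jaccard index of at least 0.3 (Ezh1, Ezh2, Ring1, Rnf2 and Cbx2). The rule names the genes and uses no measured value.

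Polycomb proteins keep genes silent through a pair of chromatin marks. Polycomb repressive complex 2 (PRC2) methylates histone H3 to give H3K27me3, with EZH1 or EZH2 as its catalytic subunit, EED and SUZ12 as the core partners without which the enzyme is inactive, and JARID2 as an accessory subunit that helps the complex onto chromatin. Polycomb repressive complex 1 (PRC1) ubiquitinates histone H2A through the E3 ligases RING1 or RNF2, each paired with a PCGF protein. PCGF1 defines the variant complex PRC1.1, PCGF6 defines PRC1.6, and CBX2 is one of the readers of H3K27me3 in canonical PRC1. In the mouse oocyte, Polycomb marks are laid down during growth, and maternal H3K27me3 can pass to the embryo as a form of imprint independent of DNA methylation.

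Oocytes were fully grown and at the germinal vesicle (GV) stage, taken from virgin C57BL/6Babr females that were ovulating spontaneously. Young females were 12 weeks old and aged females were 44 to 54 weeks old. No transgene, deletion or treatment is named for either age. RNA was measured as the transcriptome arm of scM&T-seq, in which polyadenylated RNA of 1 oocyte is amplified as Smart-seq2 cDNA. Chromatin state was either NSN (non-surrounded nucleolus) or the later SN (surrounded nucleolus), as the authors had predicted it from transcripts of the same oocytes. This configuration is therefore not independent of RNA levels. The 87 oocytes with a prediction comprised 30 young NSN, 12 young SN, 37 aged NSN and 8 aged SN oocytes. An aged oocyte without a prediction, numbered 48A, was left out of the comparisons.

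Total counts ranged from 1579196 to 8231046 in young and from 976456 to 5448310 in aged oocytes. Of 12 oocyte markers, 10 had a feature and all 10 passed the count minimum. Their summed level was 18534 to 32453 CPM in young oocytes and 10688 to 32691 CPM in aged ones. Oocytes had been cleaned of granulosa cells. The summed level of the granulosa markers, 12 of 14 with a feature, was 32.5 to 134 CPM in young oocytes and 29.1 to 148 CPM in aged ones. Among the defining markers of that lineage, Foxl2, Amh and Fshr stayed below the count minimum, Cyp19a1 had no feature, and Inha, a hormone subunit, was at 5.87 CPM. The labels do not say which mouse an oocyte came from, so each age group counted as 1 sample and no test was run. Counts were pooled over all oocytes of a group and scaled to CPM, and a ratio is the log2 ratio of a pair of such pooled levels. Its 95% interval covers counting error only, and an SD is over oocytes and describes their spread.

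The members lie on 7 chromosomes in GRCm38. Ezh1 was counted over the feature chr11:101191109-101226524, Ezh2 over chr6:47530274-47595341, Eed over chr7:89954656-89981614 and Suz12 over chr11:79992338-80034123. Jarid2 was counted over chr13:44729795-44921643, Ring1 over chr17:34020792-34024680 and Rnf2 over chr1:151469402-151501022. Pcgf1 was counted over chr6:83077635-83080855, Pcgf6 over chr19:47033616-47051042 and Cbx2 over chr11:119022962-119031270. These spans run over the exons and introns of protein-coding genes, and their ends, set in an oocyte transcriptome, differ from the annotation. The Suz12 feature began 768 bp and the Eed feature 631 bp upstream of the annotated gene start, and the Rnf2 feature, with a Jaccard overlap of 0.73, stopped short of the annotated 3′ end. Features on the other strand overlapped Ezh2, Eed, Suz12, Jarid2 and Pcgf1. Over the 87 oocytes they held 3732 counts against 113871 for Ezh2, 227 against 53169 for Eed, 2763 against 50945 for Suz12, 3814 against 31654 for Jarid2 and 0 against 102091 for Pcgf1. Whether strand was used in counting is not given in the sources used here, so reads of such pairs cannot be told apart.

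Per kb of exon length, Pcgf1 had the highest level of the 10 members, and all members but Ring1 had counts in 87 of 87 oocytes. Pooled over the 87 oocytes, Pcgf1 was at 251 CPM per kb. Ezh2 followed at 69.2, Pcgf6 at 62.1, Eed at 56.3, Rnf2 at 53.8 and Suz12 at 41.8 CPM per kb. Cbx2 was at 20.2, Jarid2 at 13.2, Ezh1 at 8.84 and Ring1 at 0.0138 CPM per kb. Pcgf1 exceeded Ezh2 in 87 of 87 oocytes, with means of 252 ± 43.6 and 70.2 ± 12.9 CPM per kb (SD, n = 87 oocytes). The 5 genes from Ezh2 to Suz12 were not cleanly ordered. Ezh2 exceeded Pcgf6 in 61 oocytes, Pcgf6 exceeded Eed in 61, Eed exceeded Rnf2 in 48 and Rnf2 exceeded Suz12 in 73 of the 87. Below them the order was steady, since Suz12 exceeded Cbx2 in 87, Cbx2 exceeded Jarid2 in 84 and Jarid2 exceeded Ezh1 in 82 oocytes. With the longest annotated transcript as the length, Ezh1 and Jarid2 exchanged places. With exon length cut to the span of the feature, Rnf2, at 58.8 CPM per kb, moved above Eed.

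**Figure D1:**
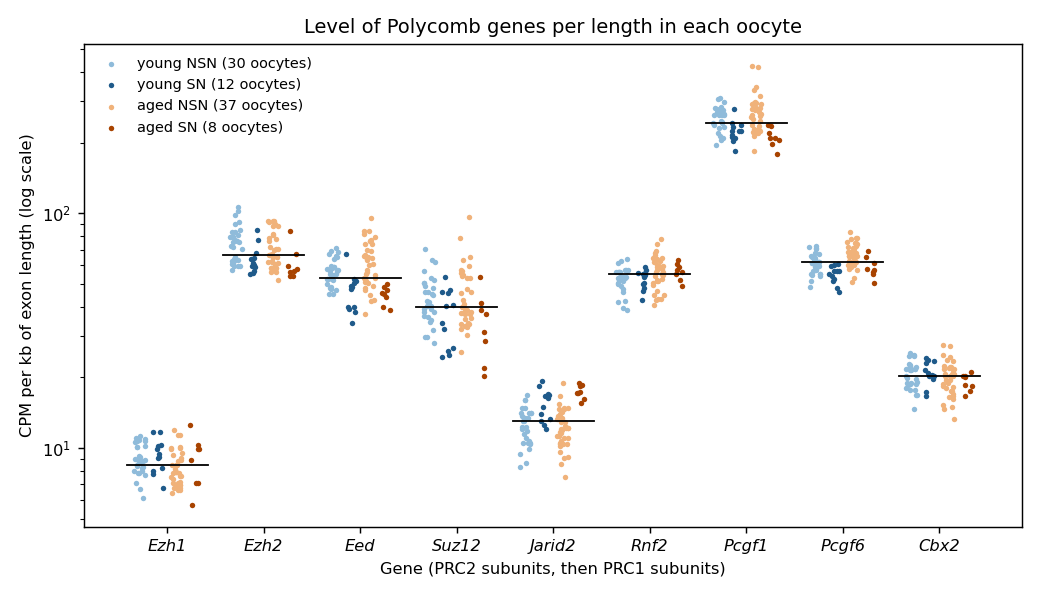
CPM per kb of exon length on a log axis for the 9 members with enough counts, 1 point per oocyte, coloured by age and predicted configuration, with a black line at the median over all 87 oocytes. Pcgf1 lies above every other gene, Ezh1 has the lowest median, and Ring1, with 11 counts in all, is not drawn.

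The methyltransferase pair of PRC2 was dominated by Ezh2. Ezh1 made up 11.3% of the summed level of Ezh1 and Ezh2 per kb of exon length, and from 6.99% to 18.9% in single oocytes. The share was 11.4% in young and 11.2% in aged oocytes. By configuration it was 10.8% in young NSN, 13.4% in young SN, 10.7% in aged NSN and 13.6% in aged SN oocytes. Ezh2 thus gave most of the message for the catalytic subunit in every group, and the share of Ezh1 was larger in SN than in NSN oocytes of both ages. With the longest transcript as the length, the share over all oocytes was 8.62%.

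The counts of the E3 ligase pair of PRC1 were more one-sided. The feature of Ring1 had 11 counts in total, in 7 of the 87 oocytes, against 54736 counts of its paralog Rnf2, which was found in every oocyte. Pooled Ring1 was at 0.045 CPM in the young group (95% interval 0.0165 to 0.098) and at 0.0442 CPM in the aged group (0.0143 to 0.103). The counts were 3 in 3 young NSN oocytes, 3 in 1 young SN oocyte and 5 in 3 aged SN oocytes. The 37 aged NSN oocytes had 0, where 3 counts over the group would be 0.0322 CPM and the 95% interval reached 0.0395 CPM. The 95% interval in aged SN oocytes, 0.0815 to 0.586 CPM, lay above that bound, but 3 of the 5 counts there came from 1 oocyte. Between the ages no difference was detectable at this depth, and no fold is given. The assembled features on either side of Ring1 on the same strand held 9054 and 6482 counts over the 87 oocytes. Whether reads of Ring1 were assigned to another feature was not tested, so these are values of its feature and may not be the level of its message.

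Both ligase genes start in CpG-dense sequence. The 250 bases upstream of a promoter start listed for each gene are shown, because the paralogs differ so widely in counts. CpG dinucleotides are in capitals, 5′ to 3′ on the minus strand. The stretches are RefSeq sequences of GRCm38.p6, at chr17:34024681-34024930 for Ring1 and chr1:151500992-151501241 for Rnf2. The start listed for Rnf2 differs from the annotated gene start at 151500955. Its stretch overlaps the counted feature, which begins at 151501022.
Ring1: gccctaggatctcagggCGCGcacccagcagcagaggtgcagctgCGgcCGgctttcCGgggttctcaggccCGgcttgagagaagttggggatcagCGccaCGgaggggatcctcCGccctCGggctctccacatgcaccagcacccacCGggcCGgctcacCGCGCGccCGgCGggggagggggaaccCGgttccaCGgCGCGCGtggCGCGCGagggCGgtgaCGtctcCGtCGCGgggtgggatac
Rnf2: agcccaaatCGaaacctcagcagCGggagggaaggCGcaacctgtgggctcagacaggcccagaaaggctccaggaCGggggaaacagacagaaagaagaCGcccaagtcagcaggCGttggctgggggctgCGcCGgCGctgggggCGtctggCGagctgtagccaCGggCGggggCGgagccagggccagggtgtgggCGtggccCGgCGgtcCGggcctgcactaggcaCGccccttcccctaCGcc
The Ring1 stretch holds 30 CpGs and the Rnf2 stretch 20. Over the full 300-base window, which runs 50 bases past the start, Ring1 had 37 CpGs, a number reached by 5.58% of 32851 mouse promoters, and Rnf2 had 30, reached by 11.7%. Among the other members with an entry, the window held 41 CpGs for Suz12, 31 for Ezh2, 22 for Pcgf6, 23 for Ezh1, 17 for Eed and 24 and 23 for the pair of Jarid2 entries. Ring1 had the second-densest window of the 8 genes and the lowest count over its feature. Whether CpG number in these windows follows the level of the members was not tested.

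Between NSN and SN oocytes the PRC2 genes moved apart. In pooled CPM the core subunits Eed and Suz12 were lower in SN oocytes of both ages, and Ezh2 was lower by less. Jarid2 was higher. Between medians over oocytes the order differed in young oocytes, with Ezh2 at -0.32, Eed at -0.22 and Suz12 at -0.17. With a ratio of at least 1.2-fold as the limit, 2 of 9 members were past it in young oocytes, both lower in SN, where 7.57% of the 12408 features were lower and 14.5% higher. In aged oocytes 3 members were lower and 1 was higher past that limit, where 19.7% of features were lower and 23.8% higher. Among the 3195 features with mean counts in the members' own range, 186 to 1309, the shares were 6.32% lower and 4.35% higher in young and 18.8% lower and 12.6% higher in aged oocytes. The median ratio of the 9 members was -0.14 in young and -0.20 in aged oocytes, beside 0.0069 and -0.0049 over the 12408 features. A pooled level weights deep oocytes, and the young SN oocyte 24A, with 8231046 counts, held 21.5% of all counts of its group. Without it 3 members were past the limit in young oocytes, Eed at -0.31, Suz12 at -0.32 and Jarid2 at 0.33.

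Eed, the PRC2 subunit that binds H3K27me3 and stimulates the enzyme, ranged in young oocytes from 173 CPM through a median of 214 to 273 CPM in NSN and from 130 through 184 to 257 CPM in SN. In aged oocytes it ranged from 143 through 233 to 365 CPM in NSN and from 148 through 174 to 191 CPM in SN. All 8 aged SN oocytes and 11 of 12 young SN oocytes lay below the median of the NSN oocytes of their age, although the ranges overlapped. The ratio SN over NSN was -0.36 in young oocytes (95% interval -0.40 to -0.32) and -0.47 in aged oocytes (-0.53 to -0.42). In young oocytes it was -0.22 between the medians over oocytes, -0.22 without the numbers 17 to 24 and -0.56 without the numbers 33 to 39, so its side of the limit rested on 1 run there.

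Suz12, the scaffold of PRC2, was the most scattered member. In young oocytes it ranged from 138 through 207 to 347 CPM in NSN and from 121 through 184 to 264 CPM in SN. In aged oocytes it ranged from 126 through 193 to 478 CPM in NSN and from 99.8 through 169 to 265 CPM in SN. The groups overlapped widely, with 4 of 12 young SN and 2 of 8 aged SN oocytes above the NSN median of their age. The ratio SN over NSN was -0.42 in young (-0.46 to -0.38) and -0.47 in aged oocytes (-0.52 to -0.41). Between medians over oocytes it was -0.17 in young and -0.19 in aged oocytes, both inside the limit. It was -0.19 without the young numbers 17 to 24, -0.65 without the young numbers 33 to 39 and, in aged oocytes, -0.26 without the numbers 41 to 48. In oocytes whose name ends in A it was -0.16 in young and -0.08 in aged oocytes, against -0.64 and -0.76 in those without the suffix, whose meaning the labels do not give.

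Jarid2 went the other way. It ranged in young oocytes from 80.8 through 123 to 163 CPM in NSN and from 117 through 152 to 187 CPM in SN. In aged oocytes it ranged from 72.8 through 118 to 184 CPM in NSN and from 151 through 167 to 184 CPM in SN. All 8 aged SN oocytes were above the aged NSN median, as 10 of 12 young SN oocytes were above the young one. The ratio SN over NSN was 0.26 in young (0.21 to 0.30), just inside the limit (0.31 between medians over oocytes, which is past it), and 0.53 in aged oocytes (0.48 to 0.59). These intervals do not overlap, but they hold counting error only, and the difference between the ages was not tested.

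In pooled CPM the catalytic pair was less shifted than Eed and Suz12. Between medians over young oocytes the ratio of Ezh2 was -0.32, past the limit and larger than those of Eed (-0.22) and Suz12 (-0.17). Without the young numbers 17 to 24 it was -0.34, against -0.22 and -0.19. Without the young numbers 33 to 39 it was -0.26, against -0.56 and -0.65. Ezh2 ranged in young oocytes from 381 through 504 to 711 CPM in NSN and from 366 through 404 to 567 CPM in SN. In aged oocytes it ranged from 347 through 444 to 621 CPM in NSN and from 361 through 383 to 560 CPM in SN. Its ratio SN over NSN was -0.26 in young, at the edge of the limit (-0.27 and -0.29, both past it, when scaled by median of ratios or by TMM), and -0.20 in aged oocytes, and 2 of 12 young SN and 2 of 8 aged SN oocytes were above the NSN median of their age. Ezh1, at 67.1 CPM in young NSN, 71.6 in young SN, 61.3 in aged NSN and 69.6 CPM in aged SN oocytes, had ratios of 0.09 and 0.18, the latter 0.39 without the aged numbers 25 to 31, -0.10 without the aged numbers 41 to 48 and -0.08 in oocytes with the suffix A, so its direction in aged oocytes was not steady.

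**Figure D2:**
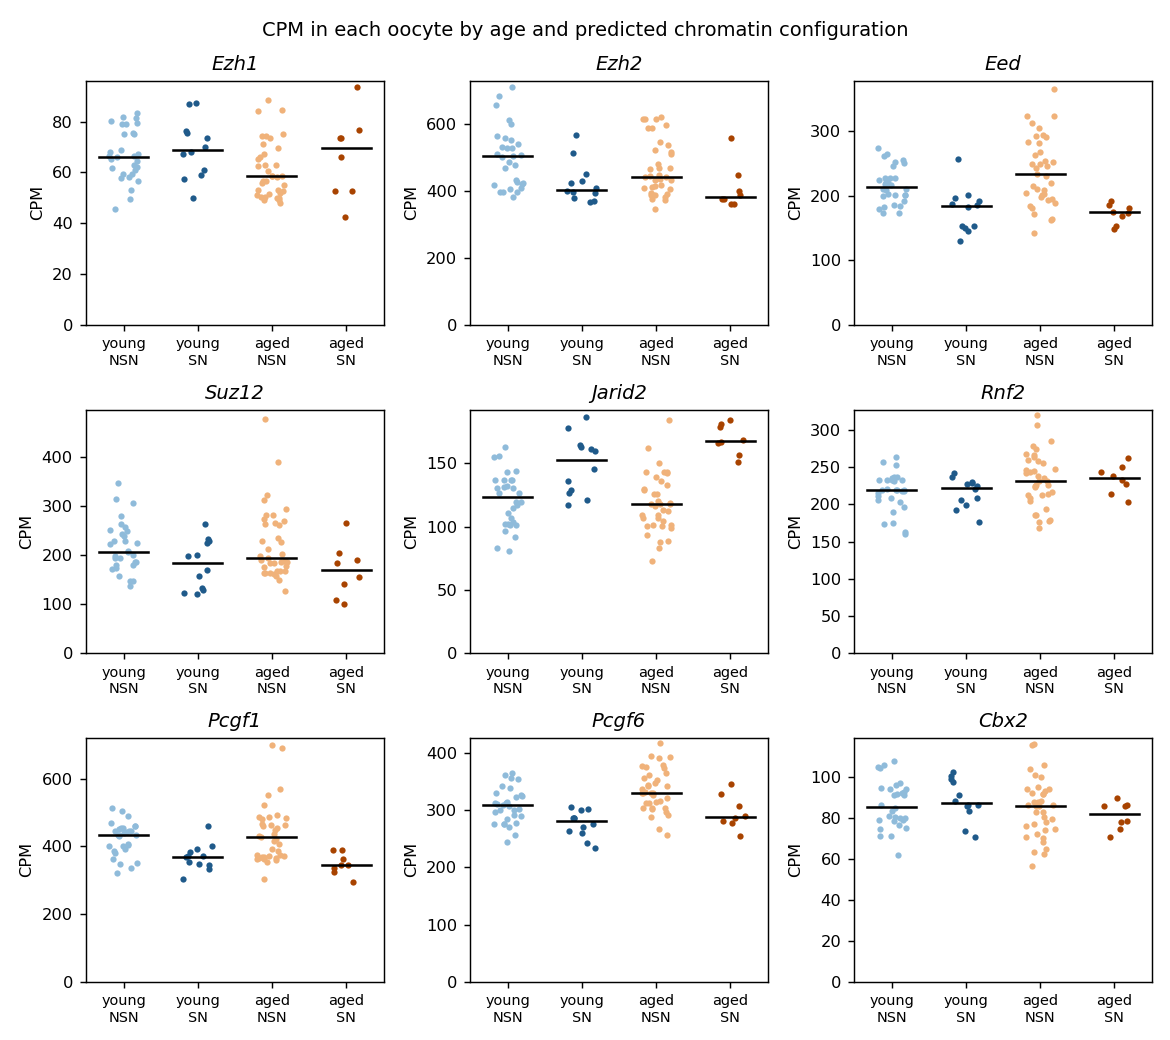
CPM of 9 Polycomb genes in each oocyte (1 point each), by age and predicted configuration (30 young NSN, 12 young SN, 37 aged NSN and 8 aged SN oocytes), with a line at the median of each group and axes that start at 0. Eed in aged SN oocytes lies below the aged NSN median in every oocyte and Jarid2 above it in every oocyte, while the Rnf2 and Cbx2 groups share their range.

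Among the PRC1 members, Pcgf1 was past the limit in aged oocytes, and Pcgf6, Rnf2 and Cbx2 were inside it at both ages. Pcgf1 ranged in young oocytes from 322 through 433 to 513 CPM in NSN and from 304 through 369 to 458 CPM in SN. In aged oocytes it ranged from 302 through 427 to 700 CPM in NSN, where its highest value, 699.5 CPM, was in oocyte 25, and from 295 through 346 to 390 CPM in SN. None of the 8 aged SN oocytes and 1 of 12 young SN oocytes was above the NSN median of its age. The ratio SN over NSN was -0.18 in young and -0.32 in aged oocytes (95% interval -0.35 to -0.28), the latter past the limit but inside it, at -0.24, without the numbers 25 to 31.

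Pcgf6 was lower in SN by a smaller and evenly spread amount. It was at 308 CPM in young NSN, 280.2 in young SN, 334 in aged NSN and 289 CPM in aged SN oocytes, with ratios of -0.14 and -0.21. None of 12 young SN and 1 of 8 aged SN oocytes was above the NSN median of its age. Rnf2, the ligase itself, was at 217 CPM in young NSN, 214 in young SN, 229 in aged NSN and 229 CPM in aged SN oocytes, with ratios of -0.02 and -0.0035. Cbx2 was at 86.3, 90.9, 84.6 and 82.2 CPM in the same order, with ratios of 0.07 and -0.04, and the SN oocytes of both ages lay within the range of the NSN oocytes.

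**Figure D3:**
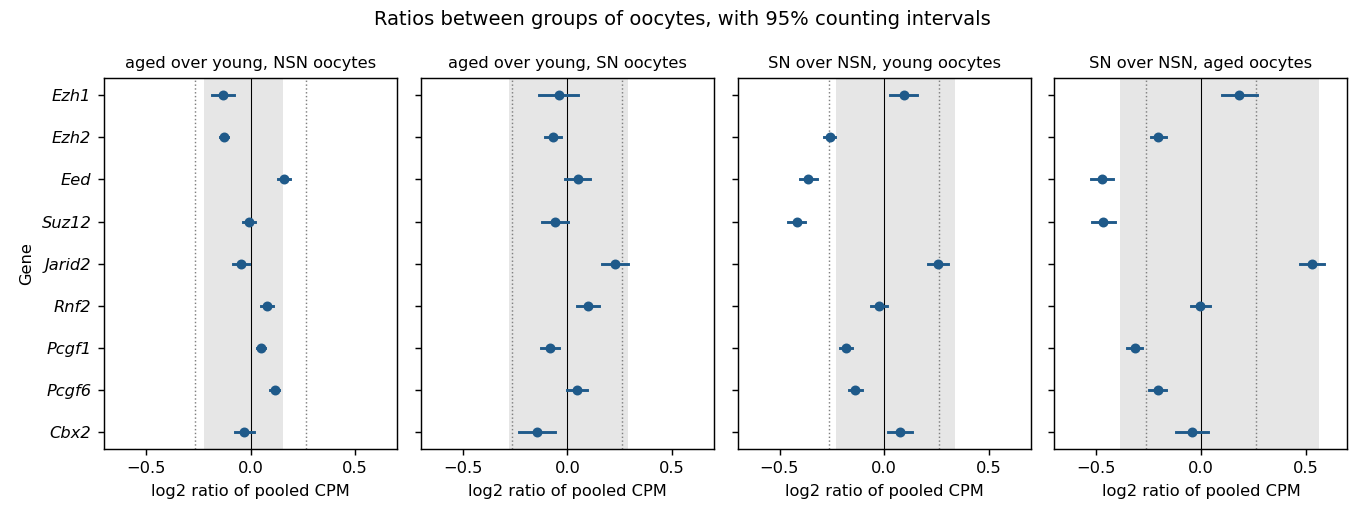
Log2 ratios of pooled CPM for 9 Polycomb genes in 4 comparisons, with 95% intervals for counting error only, dotted lines at 1.2-fold and a grey band from the 10th to the 90th percentile of the 12408 features. Eed and Suz12 lie left of the band in both comparisons of SN with NSN, and no gene passes a dotted line in a comparison of ages.

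The difference between configurations was also taken within the 6 runs of consecutive oocyte numbers, 3 of each age, since the labels give no sign of subsets of oocytes other than these numbers and the suffix A. Each run held 1 to 6 SN oocytes. Jarid2 was higher in SN in 6 of 6 runs, by 0.13 to 0.72, and Eed was lower in 6 of 6, from -0.60 to -0.06. Pcgf6 was lower in 6 of 6 runs as well, from -0.28 to -0.06. How many of all features kept 1 direction in 6 of 6 runs was not tested. These members therefore cannot be set apart from the background by that count. Suz12 and Pcgf1 were lower in 5 of 6 runs, with ratios from -0.64 to 0.15 for Suz12 and from -0.46 to 0.16 for Pcgf1. Ezh2 was lower in 5 of 6 runs but by no more than 0.18, less than its pooled ratio in young oocytes. Its level differed between the young runs, at 566 CPM in numbers 1 to 7 against 434 and 425 CPM in the others, and the first of these runs held 1 of the 12 young SN oocytes. Ezh1 was higher in 3 runs and lower in 3.

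**Figure D4:**
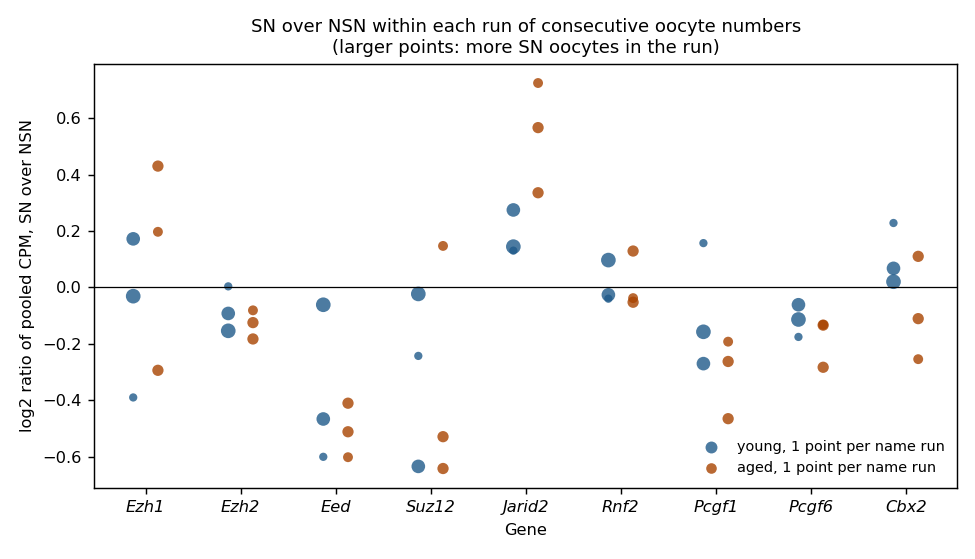
Log2 ratio of pooled CPM, SN over NSN, within each of 3 young and 3 aged runs of consecutive oocyte numbers, with larger points for runs with more SN oocytes. All 6 points of Jarid2 are above 0 and all 6 of Eed and of Pcgf6 are below it, while Ezh1 and Cbx2 lie on both sides.

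By age the Polycomb genes differed little. None of the 9 members was 1.2-fold or more higher or lower in aged oocytes, where 2.35% of the 12408 features were higher and 5.78% lower. Among the 3195 features in the members' range of counts these shares were 0.501% and 1.38%, so a count of 0 of 9 is near the background. The median ratio of aged over young was 0.03 for the members and -0.0072 for all features. The comparisons of age and of configuration use the same oocytes.

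The members with the largest differences by age were Eed and Ezh1. Eed ranged from 130 through 201 to 273 CPM in young oocytes and from 143 through 211 to 365 CPM in aged ones, and the pooled levels were 203 and 231 CPM. The ratio was 0.18 (95% interval 0.16 to 0.21), with 26 of 45 aged oocytes above the young median and 10 above the highest young oocyte. The excess lay in the upper part of the aged group rather than in all of it, and the ratio was 0.07 between the medians over oocytes. It was 0.28 without the young numbers 1 to 7, 0.10 without the young numbers 17 to 24, 0.10 without the aged numbers 41 to 48, 0.30 where the name ends in A and 0.06 where it does not. Ezh1 ranged from 45.7 through 66.9 to 87.2 CPM in young oocytes and from 42.6 through 58.5 to 93.4 CPM in aged ones, with a ratio of -0.12 (-0.17 to -0.08) and 14 of 45 aged oocytes above the young median.

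Pcgf6 was the member whose aged oocytes were most often above the young median. It ranged from 233 through 299.5 to 364 CPM in young oocytes and from 254 through 329 to 417 CPM in aged ones, with 35 of 45 aged oocytes above that median and a ratio of 0.12. Rnf2 ranged from 159.5 through 219.8 to 264 CPM in young oocytes and from 168 through 233 to 319 CPM in aged ones, with a ratio of 0.08, and 30 of 45 aged oocytes were above the young median. Ezh2 was at 475 ± 89.1 CPM in the young and 446 ± 82.4 CPM in the aged group (pooled level ± SD over 42 and 45 oocytes), with a ratio of -0.09. The difference for Ezh2 was smaller than 1 SD over the oocytes of either age. Its direction turned in 2 of 14 alternatives, to 0.05 without the young numbers 1 to 7 and 0.03 without the aged numbers 41 to 48. Pcgf1, Suz12, Jarid2 and Cbx2 had ratios of 0.05, 0.03, -0.02 and -0.06.

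Within a configuration the picture was alike. In NSN oocytes none of 9 members was past 1.2-fold, beside 2.63% of features higher and 7.3% lower, and the members ranged from -0.13 for Ezh1 and -0.13 for Ezh2 to 0.16 for Eed. In SN oocytes, with 8 aged against 12 young, none of 9 was past it, beside 11.7% of features higher and 11% lower. Jarid2 was the highest there, at 0.23 (95% interval 0.17 to 0.29), and 7 of 8 aged SN oocytes were above the young SN median. Cbx2 was the lowest, at -0.14. Without the aged numbers 41 to 48, which held 3 of the 8 aged SN oocytes, Ezh1 was at -0.30 and Suz12 at 0.28, and without the young numbers 17 to 24 Suz12 was at -0.29.

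The age difference of Ezh1 was the only one whose name runs did not overlap. Its 3 young runs lay between 65.0 and 72.0 CPM and its 3 aged runs between 58.9 and 64.3 CPM, which made 1 of 9 members with separate ranges beside 13.3% of all features. In NSN oocytes alone, none of 9 members had separate ranges, beside 13.1% of features. The ratio of Ezh1 also differed by name suffix, at -0.30 where the name ends in A and 0.04 where it does not. Eed runs overlapped, from 184 to 229 CPM for the young and from 209 to 248 CPM for the aged runs.

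The spread between oocytes was larger in the aged group for most members, as it was for most features. Spread was taken as the square of the coefficient of variation over oocytes, on size-factor normalised counts and less counting noise. It was larger in aged oocytes for 8 of 9 members, and for 73.8% of the 12145 features for which it could be had in both ages. The median log2 ratio of this spread, aged over young, was 0.71 for the members and 0.46 for those features. Pcgf1 had the largest ratio, at 1.37, with a coefficient of variation of 11.7% in young and 18.9% in aged oocytes. Eed followed at 1.05, from 17.5% to 25.2%, and Suz12 was at 0.78, from 25.8% to 33.8%. Ezh2 was the exception, with 18.9% in young and 17.7% in aged oocytes.

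The size of the age difference in spread depended on how it was taken. In NSN oocytes alone 8 of 9 members were again more spread in aged oocytes, beside 73.7% of features, with 1.59 for Eed and 1.57 for Pcgf1. With the median absolute deviation in place of the variance, which gives little weight to a few extreme oocytes, 6 of 9 were, beside 70.8% of features. By that measure the median ratio was 0.102, below the 0.437 of all features, and that of Pcgf1 was -0.01. Whether the spread lies between mice or between oocytes of a mouse cannot be told apart here.

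**Figure D5:**
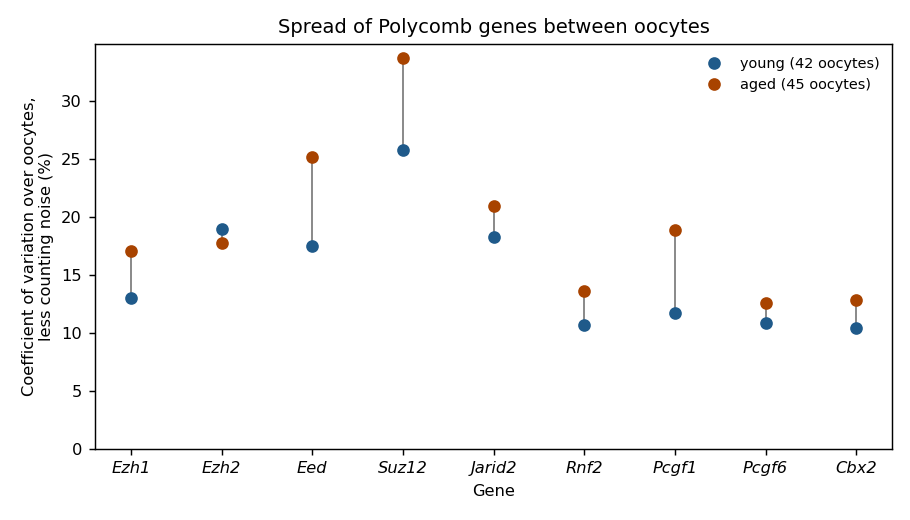
Coefficient of variation over oocytes, less counting noise, in percent for 9 Polycomb genes in 42 young and 45 aged oocytes, with a grey line joining both ages of a gene. Aged oocytes are higher for every gene drawn but Ezh2, and Suz12 has the largest spread in both ages.

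Over oocytes the members were weakly correlated. Spearman's correlation was taken over 87 oocytes on log2(CPM + 1) centred on the 4 groups of age and configuration, for 36 pairs of members. Its median was 0.07, with 20 pairs above 0 and 16 below, and the median of the members with all 7465 features was 0.006. It was 0.02 over the 10 pairs within PRC2, 0.0064 over the 6 pairs within PRC1 and 0.07 over the 20 pairs between the complexes. Ezh2 with Rnf2 had the highest value, 0.42, followed by Suz12 with Rnf2 at 0.33 and Eed with Suz12 at 0.31. Ezh1 was lowest with its own core partners, at -0.35 with Suz12 and -0.34 with Eed. These oocytes share library preparation and differ in depth. The correlation of a member with the logarithm of total counts was -0.38 for Ezh2, -0.22 for Suz12, -0.22 for Rnf2 and 0.22 for Ezh1. The median over the 36 pairs was 0.0146 after thinning to 900000 counts, 0.0317 in NSN oocytes only and 0.0579 without centring.

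The features most like each member over these oocytes included no gene of the Polycomb lists. Among 7465 features with a mean of at least 50 counts, Suz12 was closest to Qser1 (0.85) and Wapal (0.84), and Ezh2 to Nfxl1 (0.77) and Maco1 (0.75). Pcgf1 was closest to the oocyte linker histone gene H1foo (0.76) and to Mos (0.73), the kinase that holds meiotic arrest in the egg. Eed was closest to Npm1 (0.72), a nucleolar chaperone, and Clk1 (0.71), Jarid2 to Clip1 (0.69) and Atxn1 (0.66), and Rnf2 to Esyt2 (0.65) and Slain2 (0.65). Values were lower for Ezh1, with Dtx2 (0.62) and Brap (0.60), Cbx2, with Prune (0.56) and Sh3bp2 (0.56), and Pcgf6, with Arg2 (0.52) and Prc1 (0.48), a cytokinesis gene that is not the complex PRC1.

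The remaining PRC2 subunits differed little between groups, and their counts past the limit were near the background. Of 9 listed genes 7 had a feature and 6 passed the count minimum. None was past 1.2-fold by age in any set of oocytes. Over all oocytes 2.35% of features were higher and 5.78% lower by age. None was past it by configuration in young oocytes, where 14.5% of features were higher and 7.57% lower. In aged oocytes 1 of 6 was lower in SN than in NSN, Phf19 at -0.36, beside 19.7% of features. The histone chaperone Rbbp7, found in several chromatin complexes besides PRC2, was the highest at 1346 CPM, with a ratio of -0.04 in the same comparison. The accessory genes Lcor, at 133 CPM, and Mtf2, at 76.0 CPM, had ratios of 0.09 and -0.0059.

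The remaining PRC1 subunits included the gene with the largest ratio of the pathway lists, Mga. Of 26 listed genes 24 had a feature and 20 passed. In young oocytes 2 of 20 were higher and 2 lower in SN, and in aged oocytes 2 were higher and 5 lower. Over all features the shares were the 14.5% higher and 7.57% lower in young and 23.8% higher and 19.7% lower in aged oocytes given above, so these counts are near the background. The 2 that were higher in both ages, Mga and L3mbtl2, encode partners of PCGF6 in PRC1.6. Mga was at 56.1 CPM in young NSN, 84.5 in young SN, 46.0 in aged NSN and 118 CPM in aged SN oocytes, with ratios of 0.59 and 1.36. L3mbtl2 had ratios of 0.31 and 0.70, while Pcgf6 itself was lower in SN at both ages. Rybp, which joins variant PRC1, had ratios of -0.33 and -0.37, and Bmi1, the canonical PCGF gene, -0.32 and -0.27. Phc2 and Fbrs were past the limit in aged oocytes only, at -0.48 and -0.43, as was Bcorl1 at -0.38.

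By age, 1 of these 20 PRC1 genes was past 1.2-fold, near the background of 2.35% of features higher and 5.78% lower. The gene was Bcor, which encodes the corepressor of PRC1.1, with a ratio of -0.47 at 5.91 CPM. In NSN oocytes Bcor was at -0.46 and Mga at -0.29. In SN oocytes Mga was at 0.48, Bcor at -0.56 and Fbrs at -0.39, so Mga lay on opposite sides in the 2 configurations. Skp1a at 3141 CPM, Usp7 at 572 CPM and Kdm2b at 391 CPM, all tied to PRC1.1, were the most abundant of the list and were within the limit in all 5 comparisons.

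Genes that oppose Polycomb marks were all expressed. All 7 listed passed the count minimum, with the H3K27 demethylase gene Kdm6a at 308 CPM, the H2A deubiquitinase gene Usp16 at 272 CPM and Bap1, another such deubiquitinase gene, at 175 CPM. None was past 1.2-fold by age, where 2.35% of all features were higher and 5.78% lower, so 0 of 7 is near the background. Bap1 was higher in SN oocytes, at 0.34 in young and 0.34 in aged, and Asxl2, of the family of Bap1 cofactors, at 0.28 in aged oocytes. That made 1 of 7 higher in young and 2 of 7 in aged oocytes, beside 14.5% and 23.8% of all features.

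Known Polycomb targets were near the floor. None of 6 genes with maternal H3K27me3 imprints passed the count minimum, and Gab1 was the highest of them at 1.68 CPM. Of 39 Hox genes 16 had a feature and 1 passed, Hoxa7 at 25.1 CPM, with a ratio of 0.12 by age. Hoxd13 came next at 0.994 CPM.

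Other markers moved with configuration beside the Polycomb genes. Of the 10 oocyte markers, 8 were higher in SN by 1.2-fold or more in young and 9 in aged oocytes. Over all features 14.5% were higher past that limit in young and 23.8% in aged oocytes. The median ratios of the 10 markers were 0.31 and 0.53. The oocyte marker sum was 18534 to 28685 CPM in young NSN, 23438 to 32453 in young SN, 10688 to 30459 in aged NSN and 26713 to 32691 CPM in aged SN oocytes. The granulosa marker sum was 32.5 to 134 CPM in young NSN, 35.2 to 79.5 in young SN, 29.1 to 148 in aged NSN and 40.7 to 72.6 CPM in aged SN oocytes. Of the 4 granulosa markers past the count minimum, Gja1 at -1.02 and Inha at -0.31 were lower by age. Kitl at 0.80 and Gja1 at 0.50 were higher in SN among aged oocytes. Among young oocytes Gja1 at -0.66 and Inha at -0.52 were lower in SN, so Gja1 went opposite ways at the different ages. The part of these markers in the differences of the Polycomb genes was not tested. In CPM, fewer copies of a message and a larger share of other messages cannot be told apart.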

How the data were processed

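Smart-seq2 cDNA of single oocytes was sequenced without molecular identifiers, so a count is a read. The authors trimmed reads, aligned them to GRCm38 with HiSat2, and deposited raw counts of primary alignments over features of an oocyte transcriptome. The counting program and strand setting are not given in the sources used here. The members and gene lists were chosen with earlier results of these data known.

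Oocytes were grouped by age label and by the authors' predicted configuration. Counts were summed per group and scaled to the summed total (CPM), with exact Poisson intervals for levels and exact conditional binomial intervals for ratios. Features with a mean of at least 10 counts per oocyte were compared. Length was the union of GENCODE M21 exons. All 10 members are described. Of each list of pathway genes, those past 1.2-fold are named, at most 4 per comparison (Bcorl1 and, in aged oocytes, Rybp and Bmi1 were added after their values were seen), and the 3 with the highest CPM, of which 1 gene is not reported here. Correlated features were the 2 highest per member. Spread used median of ratios size factors.

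Python 3.11.15 with numpy 2.4.6, pandas 2.3.3 and scipy 1.17.1, and edgeR 4.0.16 in R 4.3.3 for TMM factors only, were used. Ratios and spread were tested on simulated counts. Alternatives covered depth (thinning to 900000 counts), pooling, normalisation, oocytes included, fold and estimator.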

Additional observations from a re-analysis of the deposited data

Results flagged for a closer look

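Ezh2 in the aged SN oocyte numbered 12 was at 559.8 CPM, set apart from the other 7 aged SN oocytes, of which the highest was at 448 CPM. The gap was 0.563 of the whole range of the 8 oocytes. The limit for flagging a gap is passed in about 1 in 20 groups of this size when oocytes are independent draws. Of the 9 members, 1 passed it. Oocytes that share a mouse cannot be told apart here, so no chance level is given for this gap. This oocyte belongs to the aged run of numbers 9 to 16, where pooled Ezh2 was at 550.2 CPM, against 431 and 390.4 CPM in the other aged runs.

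The aged oocyte numbered 48A had no predicted configuration and was left out of the comparisons. The paper excluded 1 oocyte as an outlier in a distance matrix, and 48A was taken to be that oocyte. Pcgf1 in 48A was at 694.2 CPM, above the highest young oocyte at 513 CPM. It was below the highest other aged oocyte, numbered 25, at 699.5 CPM. In the same oocyte Ezh1 at 22.02, Ezh2 at 277, Suz12 at 64.7, Jarid2 at 58.8, Rnf2 at 149 and Cbx2 at 41.5 CPM were below the lowest of the 87 oocytes, while Eed at 242 and Pcgf6 at 303 CPM were within the range of young oocytes.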

How the results depend on the processing

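No result has a replicate check, and counts without molecular identifiers are not independent molecules. Depth limits Ring1, whose 11 counts allow no comparison, and SN oocytes are few. Direct evidence on the configuration of an oocyte was not used here.

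The median ratios of the members moved by less than 0.1 on the log2 scale under thinning, other normalisations and other poolings. With oocytes of suffix A only, 2 members were past 1.2-fold by age in all oocytes (Ezh1 and Eed), 1 in NSN (Ezh1) and 2 in SN oocytes (Ezh1 and Jarid2), and the median SN over NSN ratio in aged oocytes was -0.0794. At 1.5-fold, 0 members were past the limit for SN over NSN in young and 0 in aged oocytes. Leaving out 1 oocyte or 1 name run gave 0 to 1 members past 1.2-fold by age in all oocytes, 0 to 2 in SN oocytes and 1 to 4 for SN over NSN in young oocytes. The count by age became 1 without young numbers 1 to 7, and 2 in SN oocytes without aged numbers 41 to 48. The median by age in SN oocytes was -0.0640 to 0.0618, the highest without aged numbers 25 to 31. For SN over NSN in young oocytes the count fell to 1 without young numbers 17 to 24 and was 4 without numbers 33 to 39 or without 1 of the oocytes 21A, 1A, 36A, 35A, 35 and 38. It stayed between 3 and 5 in aged oocytes. The cause was not tested.

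The median ratio of spread by age was 0.594 in NSN oocytes, 0.948 with all 88 oocytes and 0.102 with the median absolute deviation, under which the ratio of Pcgf1 reversed to -0.0141. Of 558 ratios of single members under the alternatives other than single oocytes left out, 61 had the opposite sign, and 0 of these belonged to a ratio past 1.2-fold. Ratios of single members often left their own 95% counting interval. No paired analysis was possible because the age groups share no numbers in their labels.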
